A study of Homo sapiens with 8 samples.

Results

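The genes described here are 10 secreted inflammatory cytokines and chemokines, IL6, IL11, LIF, CXCL8, CXCL1, CXCL2, CCL2, IL1A, IL1B and CSF2. They were chosen by symbol, and all 10 are among the 19952 gene symbols listed for each library. RNA sequencing was performed on 92.1 and MEL290, 2 human cell lines of uveal melanoma (UVM), after depletion or overexpression of APOBEC3B (A3B), a cytidine deaminase of single-stranded DNA. There were 4 groups with 2 libraries each, 8 in all. 92.1 cells carried a lentiviral hairpin RNA against A3B (shA3B) or the control (shCtrl), which the methods describe as the empty vector. MEL290 cells carried a lentivirus for full-length A3B (A3B OE) or its negative control (NC). All 4 groups were selected with puromycin and grown in the same serum-containing medium, and whether the stable cells were clones or pools is not given in the sources used here. Nothing states that the 2 libraries of a group came from separate cultures, so the p-values measure the spread between these libraries, which may be technical.

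IL-6, IL-11 and LIF form the IL-6 family, whose members bind a receptor of their own and then share the signalling subunit gp130 (IL6ST), which turns on JAK kinases and STAT3. CXCL8, CXCL1 and CXCL2 are chemokines that attract neutrophils, CCL2 attracts monocytes, and IL-1α (IL1A), IL-1β (IL1B) and GM-CSF (CSF2) are secreted signals that activate innate immune cells. In many cells, NF-κB, AP-1 and C/EBP factors switch these genes on, and short-lived mRNAs with AU-rich elements let them go off again.

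The values are FPKM, fragments per kilobase of transcript scaled to the mapped fragments of a library, so levels may be compared between genes. Differences are given on the log2(FPKM + 1) scale with the standard error (SE) of limma, which understates the change of genes at low FPKM. A gene was tested where it reached 1 FPKM in at least 2 libraries of a comparison, and was called where its Benjamini-Hochberg adjusted p was under 0.05. The targeted gene followed the labels, since APOBEC3B was at 35.9 and 32.3 FPKM in shCtrl, 1.98 and 2.37 in shA3B, 2.67 and 2.19 in NC and 28.4 and 27.5 in A3B OE. The defining markers differed between the lines. All 12 melanocyte markers checked reached 1 FPKM in each 92.1 library, with sums between 7325 and 8946 FPKM. The same 12 summed to between 32.9 and 39.4 FPKM in the MEL290 libraries. There SOX10, MLANA, TYR, TYRP1, DCT, SLC45A2, OCA2, EDNRB and S100B stayed under 1 FPKM in each library. MITF (13.7 to 19.6 FPKM) and GPR143 (14.8 to 18.7) were expressed in each MEL290 library and made up most of these sums. PMEL was between 0.836 and 1.31 FPKM. The 7 epithelial markers checked summed to between 1680 and 2584 FPKM in the MEL290 libraries and to between 3.75 and 5.67 in those of 92.1. KRT8 (907 to 1295 FPKM) and KRT18 (770 to 1298) made up most of the MEL290 sums. EPCAM, KRT5 and KRT19 stayed under 1 FPKM in each MEL290 library, and CDH1 and KRT14 reached at most 2.14 and 2.36 FPKM. Both lines are therefore called by their labels. A rough estimate from the smallest FPKM values put the depth between 17800000 and 32400000 fragments per library. With 2 libraries against 2, the smallest p of an exact two-sided permutation test is 0.33.

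The promoters of IL6, IL11 and CXCL8 are shown because IL6 and IL11, members of the same family, moved in opposite directions in MEL290, and CXCL8 is the chemokine with the highest level. Each window holds the 250 bases before the RefSeq start (GRCh38.p14), read 5′ to 3′ on the strand of the gene. IL6 is at chr7:22726950-22727199 on the plus strand, CXCL8 at chr4:73740319-73740568 on the plus strand, and IL11 at chr19:55370464-55370713 on the minus strand. Capitals mark matches to the motifs searched.
IL6: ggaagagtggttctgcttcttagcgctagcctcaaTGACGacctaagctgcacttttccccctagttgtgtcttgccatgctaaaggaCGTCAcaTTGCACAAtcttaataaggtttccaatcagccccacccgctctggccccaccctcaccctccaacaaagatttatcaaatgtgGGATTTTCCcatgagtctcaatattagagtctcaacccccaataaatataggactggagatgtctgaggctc
CXCL8: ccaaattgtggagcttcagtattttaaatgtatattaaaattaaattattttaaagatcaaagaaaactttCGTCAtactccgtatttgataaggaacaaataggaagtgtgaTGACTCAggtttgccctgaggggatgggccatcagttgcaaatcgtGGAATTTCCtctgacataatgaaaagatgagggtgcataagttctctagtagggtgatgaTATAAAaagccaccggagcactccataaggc
IL11: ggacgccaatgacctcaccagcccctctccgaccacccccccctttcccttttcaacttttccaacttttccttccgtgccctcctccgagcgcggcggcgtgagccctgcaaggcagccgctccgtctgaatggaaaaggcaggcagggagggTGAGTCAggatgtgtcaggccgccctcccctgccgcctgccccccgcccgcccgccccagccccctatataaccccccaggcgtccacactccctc

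Both strands of 35114 RefSeq promoter windows of this length were searched for 6 motifs. The letters of an NF-κB site, GGNNNTTCC, were present in 17.1% of the windows. Those of an AP-1 site, TGANTCA, were present in 6.57%, and those of a C/EBP site, TTGCNNAA, in 9.05%. The core of a CRE, written TGACG, was found in 21.2% of all windows. A TATA box, given as TATAAA, occurred in 10.7% of them. The letters of a STAT site, TTCNNNGAA, occurred in 6.57%. The IL6 window held the NF-κB letters from 72 to 64 bases before the start, the C/EBP letters from 155 to 148 and 2 CRE matches. CXCL8 held the NF-κB letters from 91 to 83 bases before the start, the AP-1 letters from 137 to 131, 1 CRE match and the TATA letters from 31 to 26. IL11 held 1 match, to the AP-1 letters, from 96 to 90 bases before its start. No matches in these 3 windows overlapped each other. The table used here had a promoter for 8 of the 10 genes. Among those not shown, CXCL1, CXCL2 and CSF2 held 2 matches each to the NF-κB letters, and IL1A and IL1B held none. A link between motifs and the direction of change was not tested.

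In MEL290, the members differed between A3B OE and NC in both directions. IL6 rose, IL11 and CCL2 fell, and the other members tested did not pass. Of the 10 genes, 6 were tested and 3 were called, 1 higher and 2 lower, and the calls over all 11611 genes came to 17.8%, with 10.3% higher and 7.49% lower. CCL2 passed the filter through NC alone and IL1B through A3B OE alone, so the count over the 6 is a description and is no support. Of the 8 members above 0 in MEL290, 3 had both A3B OE libraries above both NC libraries and 5 had both below. This separation was common among the 15736 symbols above 0, of which 28.6% were higher and 25.9% lower in the same way. Since the libraries are of bulk RNA, fewer cells that make a transcript and less transcript per cell cannot be told apart.

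**Figure D1:**
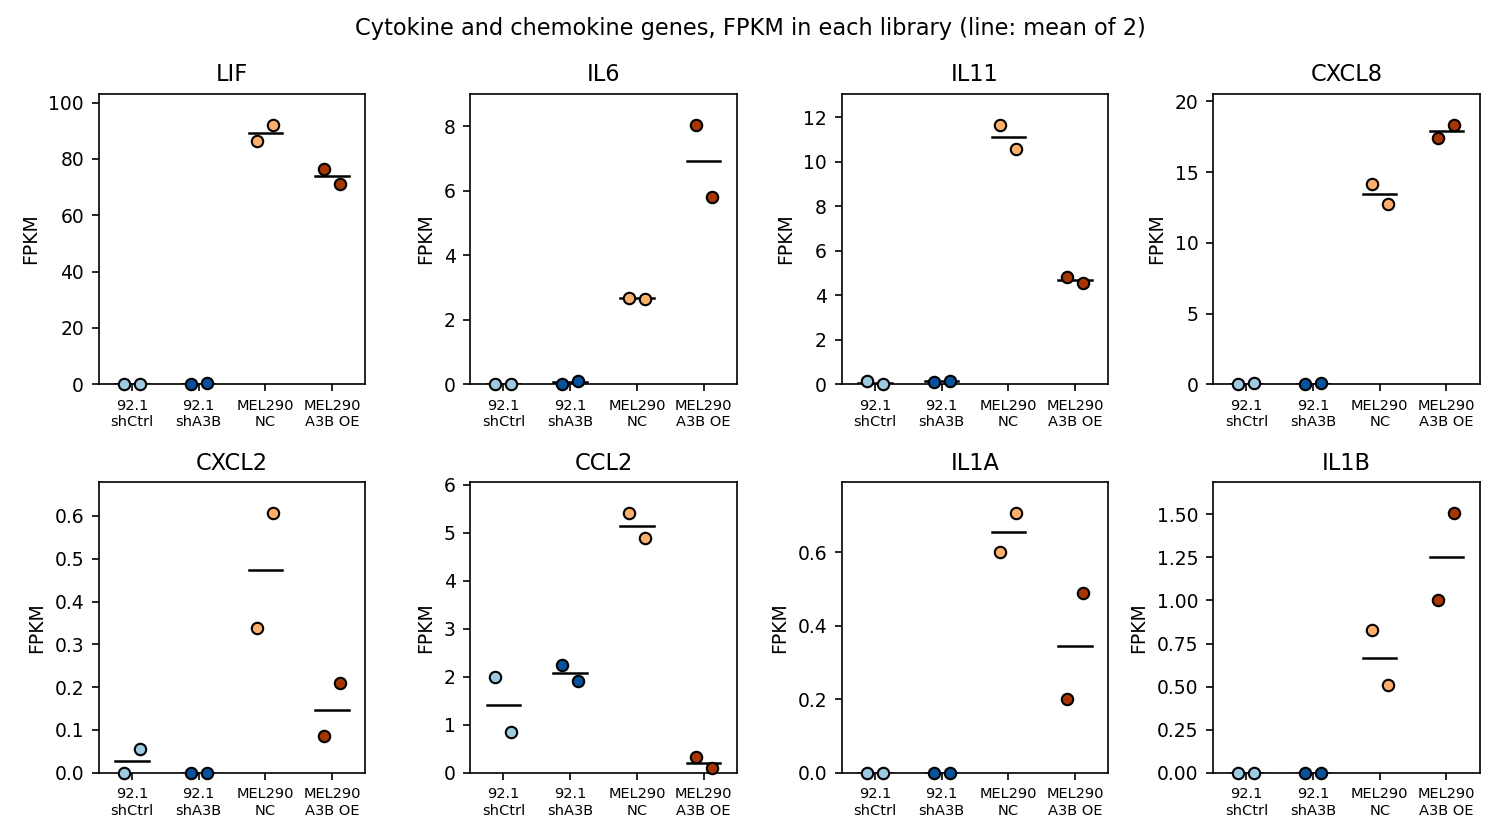
FPKM (y axis, linear from 0, 1 scale per gene) of the 8 members above 0, for the 2 libraries of each of the 4 groups. Points are libraries and lines are means of 2. LIF, IL6, IL11 and CXCL8 sit near 0 in each 92.1 library, and CCL2 is the member that falls in MEL290 A3B OE to below its 92.1 level.

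IL6 encodes the founding cytokine of the family and lies at chr7:22725884-22732002 (GRCh38, plus strand). Its FPKM was 2.68 and 2.65 in the NC libraries and 8.05 and 5.82 in the A3B OE libraries. Both A3B OE libraries were above both NC libraries, although they differed more from each other than the NC libraries did. The difference was 1.10 (SE 0.17, adjusted p = 0.011, limma), and the mean FPKM was 2.60-fold higher. Without A3B OE replicate 1 the difference was 0.90 and no longer called (adjusted p = 0.052, limma), and without the filter on low FPKM it was also lost (adjusted p = 0.064). IL6 shares 46 exonic bases with STEAP1B and 53 with IL6-AS1, both on the other strand. The strand used in counting is not given in the sources used here.

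IL11, which signals through gp130 with a receptor of its own and is known for bone and fibrotic responses, lies at chr19:55364382-55370463 (minus strand). It was at 11.7 and 10.6 FPKM in NC and at 4.82 and 4.57 FPKM in A3B OE. The libraries of each group lay close together and the groups were far apart. IL11 fell by 1.09 on the log2 scale (SE 0.12, adjusted p = 0.0044, limma), with a mean FPKM 2.37-fold lower, and stayed called with each library left out in turn (adjusted p between 0.00027 and 0.038, limma).

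LIF, the family member known for keeping stem cells undifferentiated, was the most abundant of the 10 in MEL290 and lies at chr22:30240453-30246759 (minus strand). Its FPKM was 86.2 and 92.1 in NC and 76.5 and 71.1 in A3B OE. Both A3B OE libraries were below both NC libraries. The difference of -0.27 (SE 0.08, unadjusted 95% interval -0.46 to -0.08) missed the threshold (adjusted p = 0.064, limma). Exons of the antisense genes LIF-AS1 and LIF-AS2 overlap 86 and 83 bases of LIF exons. LIF stood above 95.4% of all listed symbols in NC and above 94.5% in A3B OE.

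The ratio of IL6 to IL11, both per length, was 0.23 and 0.25 in the NC libraries and 1.67 and 1.27 in the A3B OE libraries. IL11 was thus the higher of the pair in NC and IL6 the higher in A3B OE. In FPKM, the order in NC was LIF, CXCL8, IL11, CCL2 and IL6, each with both libraries above both libraries of the next, followed by IL1B, IL1A and CXCL2 at under 1 FPKM. The order in A3B OE was LIF, CXCL8, IL6, IL11 and IL1B, again without overlap between neighbours, followed by IL1A, CCL2 and CXCL2, which overlapped in turn.

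**Figure D2:**
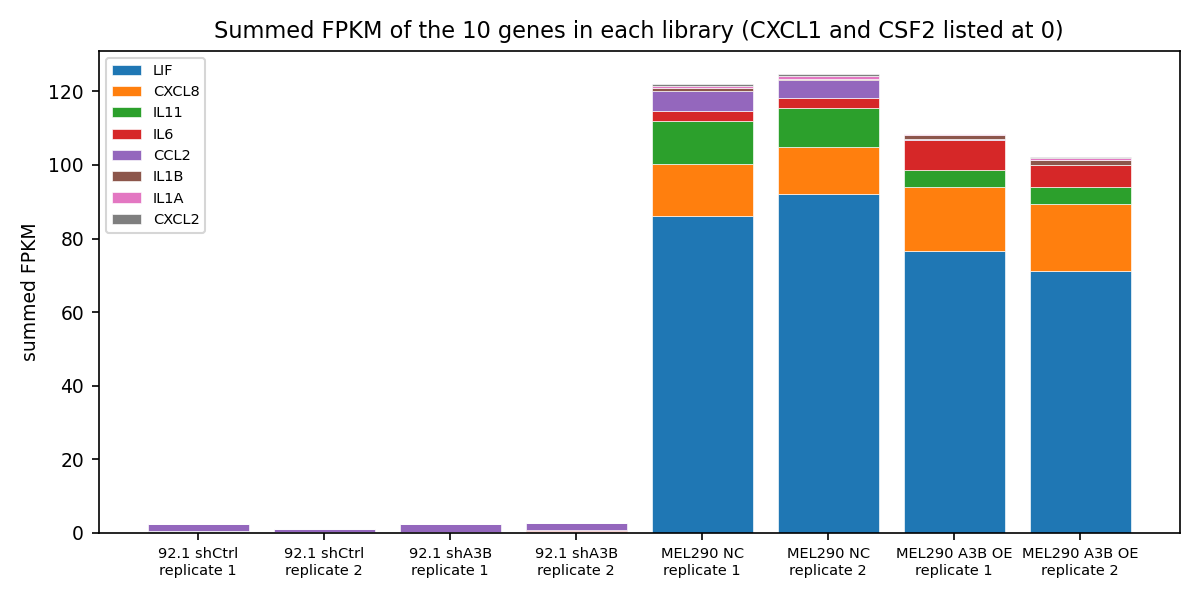
Summed FPKM (y axis, linear from 0) of the 10 genes in each of the 8 libraries, stacked by gene. LIF takes between 69.6% and 73.8% of the MEL290 sums of 102 to 125 FPKM, and the 92.1 sums are at most 2.62 FPKM.

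CCL2 encodes the monocyte chemoattractant MCP-1 and lies at chr17:34255274-34257208 (plus strand). It was at 5.41 and 4.88 FPKM in NC and at 0.326 and 0.0990 FPKM in A3B OE. Both A3B OE libraries were far below both NC libraries, and also below each 92.1 library. CCL2 fell by 2.35 on the log2 scale (SE 0.16, adjusted p = 0.0017, limma) and stayed called with each library left out in turn. Because CCL2 entered the test through NC, where it is high, its call is not independent of the filter, and without the filter its adjusted p was 0.034. From the rough depth, 1 fragment of CCL2 is worth 0.066 FPKM in A3B OE replicate 1 and 0.083 in replicate 2, so that these values rest on a few fragments and the size of the fold is loose. With a pseudocount of 0.1 the difference was -4.17.

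CXCL8, the neutrophil chemokine IL-8, lies at chr4:73740519-73743716 (plus strand). It was at 14.1 and 12.8 FPKM in NC and at 17.4 and 18.4 FPKM in A3B OE. The groups did not overlap, yet the difference of 0.39 (SE 0.10, unadjusted 95% interval 0.13 to 0.64) missed the threshold (adjusted p = 0.053, limma) and was called after upper quartile scaling (adjusted p = 0.042). CXCL2, which acts on the same receptor, was at 0.339 and 0.607 FPKM in NC and 0.0858 and 0.209 in A3B OE, too low to be tested. CXCL1 was listed at 0 in all 8 libraries. CXCL1, CXCL2 and CXCL3 are copies of similar sequence, and how the counting split fragments among them is not known, so these values are uncertain.

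Among the IL-1 genes, IL1B was the only member to pass the filter through A3B OE alone. Its FPKM was 0.827 and 0.508 in NC and 1.00 and 1.51 in A3B OE. The difference of 0.43 (SE 0.19, 95% interval -0.04 to 0.90) was not called (adjusted p = 0.18, limma). IL1A, whose protein acts on the same receptor, went the other way in level, with 0.602 and 0.707 FPKM in NC and 0.200 and 0.490 in A3B OE, and was not tested. CSF2, which encodes GM-CSF, was listed at 0 in all 8 libraries.

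**Figure D3:**
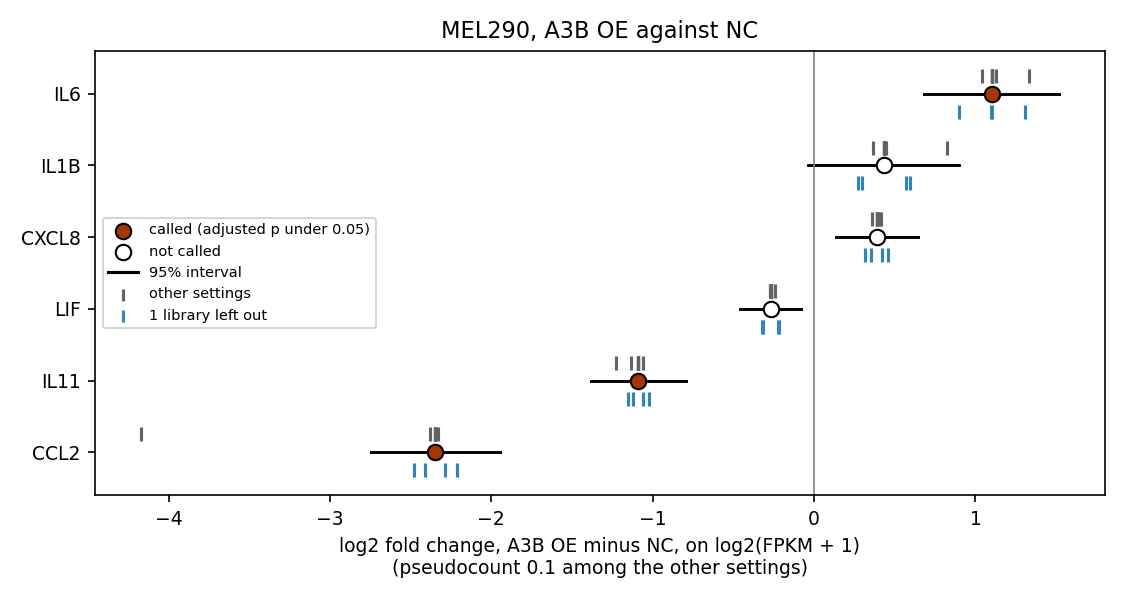
Difference between A3B OE and NC in MEL290 (x axis, log2 scale) for the 6 members tested (y axis). Circles are the values of limma, filled where the adjusted p was under 0.05, with 95% intervals, and ticks give the same difference under other settings (grey) and with 1 library left out (blue). IL6, IL11 and CCL2 are filled, and the tick at -4.17 is CCL2 with a pseudocount of 0.1.

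In 92.1, where A3B was depleted, the members were at or near 0 in both groups, and CCL2 was the 1 member that could be tested. None of the 10 was called, and over all 11605 genes tested 0.00862% were, which is APOBEC3B alone. CCL2 was at 1.99 and 0.839 FPKM in shCtrl and at 2.25 and 1.90 FPKM in shA3B. The groups overlapped, and the difference of 0.39 (SE 0.24, 95% interval -0.15 to 0.93, unadjusted p = 0.138) was not called (adjusted p = 1, limma). Left-out libraries moved it from 0.04 (without shCtrl replicate 2) to 0.74 (without shCtrl replicate 1), and it was called in none of the 4 fits.

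The other members of 92.1 stayed at or under 0.332 FPKM. LIF was at 0.206 and 0.0107 FPKM in shCtrl and 0.117 and 0.332 in shA3B, and IL11 at 0.138 and 0.0181 in shCtrl and 0.0910 and 0.159 in shA3B. CXCL8 was at 0.0259 and 0.0551 FPKM in shCtrl and at 0 and 0.108 in shA3B, where 1 fragment is worth between 0.021 and 0.027 FPKM by the rough depth. IL6 was listed at 0 in 3 of the 4 libraries and at 0.114 FPKM in shA3B replicate 2, CXCL2 was above 0 in shCtrl replicate 2 alone (0.0562 FPKM), and IL1A and IL1B were listed at 0 in all 4. These genes did not pass the filter, and without it none was called (adjusted p = 0.99 for each of the 5 above 0, limma). CCL2 made up between 72.8% and 91.5% of the summed FPKM of the 10 genes in the 92.1 libraries.

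Between the control cells of the lines, the members were higher in MEL290. Cell line and control vector cannot be told apart here, and these libraries are also the controls of the comparisons above. Of the 10 genes 5 were tested, and all 5 were called higher in NC than in shCtrl, and calls were also made for 73% of the 12352 genes that entered this test, with 33.7% higher and 39.3% lower. IL6, IL11, LIF and CXCL8 passed the filter through NC alone, so they had to differ and their number is no support. The differences were 6.35 for LIF (SE 0.14, adjusted p = 3.6e-06), 3.79 for CXCL8 (SE 0.13, adjusted p = 9.6e-06), 3.49 for IL11 (SE 0.13, adjusted p = 1.4e-05) and 1.87 for IL6 (SE 0.10, adjusted p = 4.1e-05), all by limma. CCL2 was the member expressed in both lines, with a difference of 1.39 (SE 0.25, adjusted p = 0.0036, limma), which was lost without NC replicate 1 (1.33, adjusted p = 0.075) or without NC replicate 2 (1.45, adjusted p = 0.065). The sum of the 10 genes was between 122 and 125 FPKM in NC and between 0.979 and 2.36 in shCtrl.

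The genes most like LIF over the 8 libraries, on log2(FPKM + 1), were SLPI (Pearson's r = 0.9998), SLC9A7 (r = 0.9997) and KRT8 (r = 0.9997), and those most like CXCL8 were COL8A1, OXTR and ARHGAP29 (r = 0.9997 each). They were taken from 12063 symbols with a mean of at least 1 FPKM. The points share 4 low values from 92.1 and 4 high values from MEL290, and the correlations are a description. LIF and KRT8 had lower means in A3B OE than in NC, and CXCL8 and COL8A1 higher ones.

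The A3B effect in MEL290 (A3B OE minus NC) was set against that in 92.1 (shA3B minus shCtrl) by subtracting the second from the first, over all 8 libraries. A3B went up in one line and down in the other, so equal effects of A3B would not give 0. Of the 6 members tested, 3 were called, 1 higher and 2 lower, beside 4.4% of the 12697 genes in the fit, with 3.06% higher and 1.35% lower. The differences were -2.74 for CCL2 (SE 0.31, adjusted p = 0.0072), -1.15 for IL11 (SE 0.18, adjusted p = 0.015) and 1.02 for IL6 (SE 0.22, adjusted p = 0.041), all by limma. CXCL8 (0.37, adjusted p = 0.29), IL1B (0.43, adjusted p = 0.31) and LIF (-0.41, adjusted p = 0.30) were not called. With the 92.1 effect turned to shCtrl minus shA3B, so that more A3B counts as positive in both lines, the values were -1.96 for CCL2 (adjusted p = 0.015), -1.03 for IL11 (adjusted p = 0.018) and 1.18 for IL6 (adjusted p = 0.023), by limma. IL6 and IL11 were near 0 in 92.1, so this comparison restates their MEL290 change, and CCL2 is the member for which both lines give a level. In the first form, IL6 was called with A3B OE replicate 2 left out but with none of the other 7 libraries left out, and IL11 lost its call without shCtrl replicate 2, shA3B replicate 2, NC replicate 1, A3B OE replicate 1 or A3B OE replicate 2 (adjusted p between 0.051 and 0.062, limma).

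The receptors of the members did not pass the test with A3B. The list holds 14 genes of receptors, decoys and the antagonist IL1RN, of which 4 were tested in MEL290 and 0 were called (limma, also 0 at an unadjusted p under 0.05), with a median log2 fold change of 0.038. IL6ST, which encodes gp130, was at 27.5 and 21.6 FPKM in NC and at 23.8 and 30.7 in A3B OE, with overlapping groups. In 92.1 its difference was 0.33 and not called. The private receptors differed in level in MEL290, with IL11RA at 3.08 and 2.15 FPKM in NC and 2.55 and 2.30 in A3B OE, IL6R at 0.094 and 0.298 FPKM in NC and 0.826 and 0.038 in A3B OE, and LIFR at no more than 0.267 FPKM in the 4 libraries. Between the controls, 6 genes of this list were tested, 1 higher and 4 lower in NC, where most genes tested (73%) were called. IL1RAP (-3.28, SE 0.38, adjusted p = 0.00066), IL11RA (-2.58, SE 0.18, adjusted p = 1e-04) and IL6R (-2.46, SE 0.14, adjusted p = 4.3e-05) were the largest of these differences (limma). IL6R and LIFR passed the filter through shCtrl alone and IL1R1 through NC alone. The count of this list is therefore a description, and the call of IL6R is no support.

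The counts of the lists below stand beside 17.8% of all genes called in MEL290 and are no result about a list. Downstream of gp130, 8 of 10 JAK-STAT3 genes were tested in MEL290 and 2 rose and 1 fell. SOCS3, the feedback inhibitor induced by STAT3, was at 4.14 and 3.81 FPKM in NC and 7.97 and 6.94 in A3B OE (0.76, SE 0.13, adjusted p = 0.015, limma). BCL3 rose by 0.69 (adjusted p = 0.012) and PTPN11, which encodes the phosphatase SHP2, fell by 0.35 on the log2 scale (adjusted p = 0.031). STAT3 itself was at 28.7 and 27.7 FPKM in NC and at 27.4 and 27.5 in A3B OE. SOCS3 and BCL3 lost their calls when either A3B OE library was left out, and PTPN11 with any of the 4 left out.

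Of the 16 NF-κB genes, 15 were tested in MEL290, 3 were called higher and 0 lower, a share near that of all genes, with a median of 0.12. MAP3K14, the kinase NIK of the noncanonical pathway, was at 3.08 and 3.57 FPKM in NC and at 7.12 and 7.13 in A3B OE (0.91, adjusted p = 0.0089, limma). NFKBIA, the inhibitor IκBα, rose by 0.40 (adjusted p = 0.044). TRAF1, with 0.680 and 1.05 FPKM in NC and 2.09 and 2.17 in A3B OE (0.76, adjusted p = 0.029), needed A3B OE to pass the filter. All 3 lost their call when either A3B OE library was left out, TRAF1 also without NC replicate 1, and NFKBIA with any of the 4 libraries left out. Of the 15 genes, 5 had an unadjusted p under 0.05.

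Among AP-1, C/EBP and ATF genes, 9 were tested in MEL290, 2 rose and 1 fell, with a median of -0.14. FOSL1, an AP-1 subunit, was at 35.9 and 34.7 FPKM in NC and at 58.5 and 54.1 in A3B OE (0.66, SE 0.08, adjusted p = 0.0058, limma) and stayed called with each library left out. JUNB rose by 0.58 (adjusted p = 0.022) and JUN fell by 0.35 on the log2 scale (adjusted p = 0.034). Both lost their call when either A3B OE library was left out, and JUN also without NC replicate 1. Between the controls, 12 genes of this list were tested, 3 higher and 6 lower in NC, where 73% of all genes tested were called. The 3 higher were FOSL2 (4.15), FOSL1 (4.13) and JUN (2.85).

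Of 9 proteins that bind AU-rich or stem-loop elements of cytokine mRNAs, 3 rose and 1 fell in MEL290, with a median of 0.24. ZFP36L2, which promotes decay of such mRNAs, was at 20.4 and 20.7 FPKM in NC and at 34.4 and 34.0 in A3B OE (0.71, SE 0.08, adjusted p = 0.005, limma). Its paralog ZFP36L1 fell by 0.43 on the log2 scale (adjusted p = 0.010) and HNRNPD, which encodes AUF1, rose by 0.33 (adjusted p = 0.032), a call lost without NC replicate 1, NC replicate 2 or A3B OE replicate 2. These 2 ZFP36 paralogs thus changed in opposite directions, and both kept their call with each library left out. ZFP36L1 lost its call with all 8 libraries in 1 fit. Another paralog, ZFP36, was at 7.06 and 5.61 FPKM in NC and at 7.21 and 8.03 in A3B OE. For IL-1 processing, 7 of 11 genes were tested and 1 was called, CAPN2, which encodes a calpain subunit (-0.26, adjusted p = 0.049, limma), a call lost with any library left out. CASP1, which cleaves pro-IL-1β, was at 17.4 and 15.4 FPKM in NC and 16.3 and 15.4 in A3B OE and listed at 0 in each 92.1 library.

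Other cytokines also moved both ways in MEL290. Of 47 listed, 14 were tested, and 4 were called higher and 2 lower. CSF1, the macrophage growth factor, was at 3.02 and 3.39 FPKM in NC and at 12.2 and 12.1 in A3B OE (1.64, adjusted p = 0.0018, limma). TGFB2 was at 52.3 and 47.3 FPKM in NC and at 14.4 and 15.4 in A3B OE (-1.68, adjusted p = 0.0011). IL33, an alarmin of the IL-1 family, was at 0.444 and 0.679 FPKM in NC and at 2.10 and 3.48 in A3B OE (1.26, adjusted p = 0.014), a call lost without A3B OE replicate 2 or without the filter. CXCL3, picked after its values were seen as the paralog of CXCL1 and CXCL2, was at 0.773 and 0.279 FPKM in NC and at 1.61 and 1.92 in A3B OE. Its call was lost without the filter, with a pseudocount of 0.1 and under a replicate block. It was also lost without NC replicate 2 or either A3B OE library. IL33 and CXCL3 passed the filter through A3B OE alone, so their calls are no support for a rise. Of the other factors known to be secreted along with these cytokines by senescent cells, 15 were tested, and 5 were called higher and 3 lower, with a median of 0.00056. PLAT, which encodes tissue plasminogen activator, fell (-1.05, adjusted p = 0.0031), and SERPINE2, a protease inhibitor, rose (0.89, adjusted p = 0.0073), both by limma and with each library left out. TNFRSF11B, the decoy receptor osteoprotegerin, was at 0.670 and 0.757 FPKM in NC and at 2.16 and 1.88 in A3B OE, passed the filter through A3B OE alone, and lost its call (adjusted p = 0.018, limma) when either A3B OE library was left out.

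In 92.1 none of these lists held a called gene (limma). The largest differences there, not called, were 0.33 for IL6ST among receptors, -0.35 for NFKBIE among NF-κB genes, -0.35 for JUNB among AP-1 genes, 0.16 for PTPN11 among JAK-STAT3 genes, -0.35 for ZFP36 among mRNA decay genes, 0.32 for CASP4 in IL-1 processing, 0.72 for TGFB1 among other cytokines and -0.20 for TIMP1 among other secreted factors. At an unadjusted p under 0.05 there was 1 gene each among NF-κB genes, AP-1 genes and other cytokines, and 0 in each of the other lists.

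Markers of other cell types were set beside the members. Leukocytes are a rich source of IL-1β, CXCL8 and CCL2. Of 12 leukocyte markers, 2 reached 1 FPKM in both libraries of each MEL290 group and 1 in both libraries of each 92.1 group, none of them was called with A3B in either line (0 also at an unadjusted p under 0.05), and CD3E, FCGR3A, AIF1 and TYROBP were at 0 in each MEL290 library. The summed leukocyte markers were between 28.3 and 30.2 FPKM in NC and between 30.8 and 33.4 in A3B OE. CD68, also expressed outside leukocytes, made up 26.1 to 31.6 FPKM of these sums. The other marker that reached 1 FPKM was CSF1R, at 1.26 and 1.82 FPKM in NC and 1.42 and 2.31 in A3B OE. In 92.1 it was at most 0.186 FPKM. PTPRC was at 0.0965 and 0.0414 FPKM in NC and 0.225 and 0.475 in A3B OE, too low to be tested. Of 10 fibroblast markers 4 were tested in MEL290 and POSTN rose (1.28, adjusted p = 0.0024, limma), with sums between 86.4 and 89.0 FPKM in NC and between 132 and 133 in A3B OE. POSTN itself was at 18.6 and 18.7 FPKM in NC and at 42.9 and 50.8 in A3B OE. The other 3 tested were COL1A1 (26.9 to 40.7 FPKM in the MEL290 libraries), FAP (23.6 to 34.6) and PDGFRB (16.4 to 19.9). These 3 were not called, and all 4 differences were positive. PDGFRA, COL1A2, COL3A1, DCN, LUM and THY1 stayed under 1 FPKM in each MEL290 library. All 3 epithelial markers tested were called lower, KRT14 (-1.10), KRT18 (-0.66) and KRT8 (-0.40). KRT14 passed the filter through NC alone and lost its call without A3B OE replicate 1, and KRT8 lost it without NC replicate 1, while KRT18 kept it. The sum of the 7 went from between 2549 and 2584 FPKM in NC to between 1680 and 1898 in A3B OE. The part of these shifts in the members' differences was not tested.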

How the data were processed

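RNA sequencing of 92.1 (shCtrl, shA3B) and MEL290 (NC, A3B OE) cells gave 8 libraries. STAR (alignment to GRCh38) and Cufflinks were used by the authors, who deposited 1 FPKM value per gene symbol and library. FPKM is already scaled for length and depth, so no count test was used, read counts were not recovered, and an exact 0 may be a failed estimate. Genes reaching 1 FPKM in 2 or more libraries of a comparison entered limma 3.58.1 (R 4.3.3, eBayes with trend) on the log2(FPKM + 1) scale. P-values were adjusted over all genes tested by Benjamini-Hochberg, and those under 0.05 were called. The difference of the A3B effects used all 8 libraries. The test was checked on simulated data.

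The members and gene lists were chosen with earlier results of these data known. The text names all members and, per list and comparison, up to 3 called genes with the largest difference (in 92.1, where none was called, the largest one). LIFR, STAT3 and CXCL3 were named after their values were seen. 1 listed gene is not reported here and was left out of its list's counts. Alternatives were another normalization, filter, pseudocount, minimum fold or pooled fit, no trend, a replicate block and each library left out. For genes outside the 10, the same alternatives were added after seeing the data. Coordinates are from GENCODE release 44 and promoters from RefSeq (GRCh38.p14). Depth was estimated from genes with 1 transcript and FPKM between 0.001 and 0.1. The authors' Cuffdiff calls were not used.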

Additional observations from a re-analysis of the deposited data

Results flagged for a closer look

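The difference A3B OE minus NC in MEL290, less that of shA3B minus shCtrl in 92.1, was tested for 6 of the 10 genes. It was called for 3 of them (limma over 8 libraries), beside 4.4% of the 12697 genes in the fit. CCL2, the monocyte chemokine, differed by -2.74 on the log2 scale (adjusted p = 0.0072), from -2.35 in MEL290 and 0.39 in 92.1, where the groups overlapped and 0.39 was not called. IL11 differed by -1.15 (adjusted p = 0.015) and IL6 by 1.02 (adjusted p = 0.041), and both were at or near 0 in each 92.1 library, so that MEL290 sets these values. A3B went up in one line and down in the other, so equal effects of A3B would not give 0. Counted toward more A3B in both lines, a form added after seeing the data, the value for CCL2 was -1.96 (adjusted p = 0.015). Depletion and overexpression are opposite interventions in different lines, and line and intervention cannot be told apart here.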

How the results depend on the processing

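None of the 18 member differences tested changed sign under the alternatives run, which leave out CXCL1, CXCL2, IL1A and CSF2 and, in 92.1, each member but CCL2. Called members in MEL290 were 3 in most settings, 4 after quantile normalization (LIF added, adjusted p = 0.047, limma) or upper quartile scaling (CXCL8 added), and 2 without a filter (IL6 lost), with at least 1 FPKM in every library (CCL2 not tested) or without A3B OE replicate 1 (IL6 lost). Genes called there went from 2065 to 915 without a filter, to 314 with a minimum log2 fold change of 1, and to between 774 and 1944 with 1 library left out (902 and 774 without A3B OE replicate 1 or 2). In 92.1 the count of 1 gene became 2 without the trend, 0 without a filter and between 2 and 7 with 1 library left out. Nothing states that the replicate numbers pair the samples, and the 2 pairs of each line are too few to tell. The correlations of their deviations were 0.19 in 92.1 and -0.03 in MEL290. A replicate block called 37 genes in 92.1 and 223 for the difference of the A3B effects. Under the replicate block IL6 lost its call in that difference (adjusted p = 0.072) and no other member's call changed. Between the controls, members called were 8 without a filter and 0 with 1 FPKM in every library, where none could be tested, and genes called were 4959 with the minimum fold. For the difference of the A3B effects, genes called went from 559 to 328 with 1 FPKM in every library, to 287 with the minimum fold, and to between 150 and 285 with 1 library left out, and members called went from 3 to 0 with 1 FPKM in every library (none tested), to 1 (CCL2) with a pseudocount of 0.1, where IL6 had an adjusted p of 0.47 and IL11 of 0.12, and to between 1 and 2 with 1 library left out. The causes were not tested beyond the smaller number of genes or libraries. With a pseudocount of 0.1 the differences between the controls grew to 8.92 for LIF, 6.60 for CXCL8, 6.06 for IL11 and 4.79 for IL6. Over the members' own differences, called or not, 135 stayed on their side of the threshold, 5 lost a call and 2 gained one under other settings, and 81 stayed and 15 lost a call with 1 library left out. Counting more A3B as positive in both lines, added after seeing the data, called the same 3 members. Other settings also removed MEL290 calls of genes named outside the 10. Without the filter these were SOCS3, PTPN11, TRAF1, NFKBIA, JUNB, JUN, HNRNPD, CAPN2, KRT8, IL33 and CXCL3. Without the trend, JUN, PTPN11, HNRNPD, CAPN2 and KRT8 lost theirs. The replicate block removed TRAF1, NFKBIA, PTPN11, HNRNPD, CAPN2 and CXCL3, and quantile normalization removed NFKBIA. Depth limits what the lowest values show, such as CXCL8 in 92.1, which by the rough depth rests on a few fragments.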
